A study of Mus musculus with 20 samples.

Results

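The polyamine metabolism genes are 10 genes taken by symbol among the 55416 genes of the count table: Odc1, Azin1, Oaz1, Oaz2, Amd1, Srm, Sms, Sat1, Smox and Paox. All 10 had enough reads to be tested, among 14471 genes in all. They were measured by RNA sequencing of quadriceps from old male wild-type C57BL/6J mice of 26 to 28 months, fasted for 4 h and killed 3 h after one 50 µL intramuscular injection. The control group received saline (0.9%, n = 10) and the secretome group received a cell-free product of medium conditioned by partially differentiated human embryonic stem cells (n = 10). The question was how a single injection acts on transcription in the muscle.

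Polyamines (putrescine, spermidine and spermine) are small, positively charged molecules that bind nucleic acids and are needed for growth and translation. Ornithine decarboxylase makes putrescine, and spermidine synthase and spermine synthase then add aminopropyl groups that S-adenosylmethionine decarboxylase supplies. The route back runs through acetylation by spermidine/spermine N1-acetyltransferase and oxidation by polyamine oxidase, or directly through spermine oxidase. Antizymes bind ornithine decarboxylase and send it to the proteasome, and the antizyme inhibitor binds the antizymes in turn. In skeletal muscle, spermine oxidase is known for falling when muscle wastes.

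Each library held between 13286983 and 22987237 counted reads. The share of the giant muscle gene Ttn followed library number, at 7.02% to 11.03% in libraries 1 to 5 (all control), 16.4% to 21.1% in libraries 6 to 15 (5 of each group) and 14.2% to 14.7% in libraries 16 to 20 (all secretome). The labels name no batch, and outside libraries 6 to 15 library number and treatment cannot be told apart. The 6 muscle fibre markers Acta1, Ckm, Mb, Tnnt3, Myh4 and Myh2 summed to 55140 to 102623 CPM in control and 77861 to 115552 in secretome muscles, so the markers of the labelled tissue were present in every library. CPM are reads per gene scaled to a fixed library total, after TMM adjustment of library sizes. Macrophage markers summed to 31.5 to 98.5 CPM in control and 24.9 to 81.7 in secretome muscles. Over all libraries, 3 of 5 were lower at an unadjusted p under 0.05, where 9.21% of all genes were lower. Of 4 adipocyte markers 4 were lower (median log2 fold change -0.62, 1 at that p), and of 5 fibroblast markers 5 (-0.36, 0 at that p). Endothelial, Schwann cell, blood and satellite cell medians lay from -0.20 to -0.06. Muscle fibre and neutrophil medians were positive (0.09 and 1.12). The part of these cells in the results below was not tested, and in whole muscle fewer cells of a type and less RNA per cell cannot be told apart.

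The promoter windows of 3 genes are shown because Amd1 and Smox moved together from mouse to mouse and Odc1, the first enzyme of the pathway, did not move with them. Each holds 300 bases, from 250 before to 50 after the annotated start, taken from RefSeq (build GRCm38.p6) and printed 5′ to 3′ on the strand of the gene. The capitals mark matches on either strand to 5 short motifs. They are the GC box, spelled GGGCGG, and the box of core promoters spelled TATANAA, with N for any base. The others are the E-box, spelled CACGTG, the half-site of steroid receptors, spelled AGAACA, and the promoter element spelled CCAAT.
Amd1, chr10:40302139-40302438, minus strand: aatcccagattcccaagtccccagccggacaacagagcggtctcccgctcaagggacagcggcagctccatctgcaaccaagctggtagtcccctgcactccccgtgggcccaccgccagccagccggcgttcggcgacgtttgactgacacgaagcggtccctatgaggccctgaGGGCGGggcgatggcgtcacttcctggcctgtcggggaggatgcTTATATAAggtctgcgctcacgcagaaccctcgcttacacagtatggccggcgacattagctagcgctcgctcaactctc
Smox, chr2:131491612-131491911, plus strand: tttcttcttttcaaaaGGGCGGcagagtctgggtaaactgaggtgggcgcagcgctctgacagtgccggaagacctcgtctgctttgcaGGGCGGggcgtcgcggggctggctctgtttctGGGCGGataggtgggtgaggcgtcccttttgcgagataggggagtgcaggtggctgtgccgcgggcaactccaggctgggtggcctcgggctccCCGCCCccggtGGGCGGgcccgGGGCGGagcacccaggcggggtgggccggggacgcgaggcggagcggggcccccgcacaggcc
Odc1, chr12:17544623-17544922, plus strand: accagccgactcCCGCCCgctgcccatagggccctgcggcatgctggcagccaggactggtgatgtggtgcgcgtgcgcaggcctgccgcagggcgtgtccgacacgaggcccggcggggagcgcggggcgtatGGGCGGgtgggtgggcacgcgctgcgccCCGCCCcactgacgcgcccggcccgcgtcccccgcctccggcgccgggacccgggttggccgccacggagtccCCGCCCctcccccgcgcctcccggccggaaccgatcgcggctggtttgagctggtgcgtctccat

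The Amd1 window held 1 GC box and 2 overlapping TATANAA matches, 1 on each strand. Smox held 6 GC boxes and Odc1 held 4, and neither held TATANAA. Of the 8 members with an entry in the table (Srm and Azin1 have none), 7 held a GC box and 2 held TATANAA, against 35.7% and 11.35% of all 32851 promoter windows. The CCAAT element stood in 2 members (37.4% of all windows), a steroid receptor half-site in 2 (18.97%) and an E-box in 1, Sms (7.15%). Paox and Sms each have 2 windows, and a member was counted if either held the match.

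Levels were compared between genes per kilobase of annotated exon. In control muscle, Amd1 stood first, with a median of 86.2 CPM per kilobase and a range of 52.6 to 249. Oaz1 followed at 60.1, Odc1 at 36.7, Smox at 34.5 and Oaz2 at 25.9, and the ranges of neighbours in this order overlapped. Spermine synthase Sms had a median of 16.01 CPM per kilobase (12.4 to 19.8) and lay wholly below Oaz2 and wholly above Azin1 in the controls. Azin1 (6.13), Srm (5.21) and Sat1 (4.76) overlapped one another. The peroxisomal oxidase Paox was lowest, at a median of 0.70 CPM per kilobase (0.54 to 1.00), wholly below Sat1. Exon lengths were the union of all annotated exons, so genes with many long isoforms are placed too low.

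**Figure D1:**
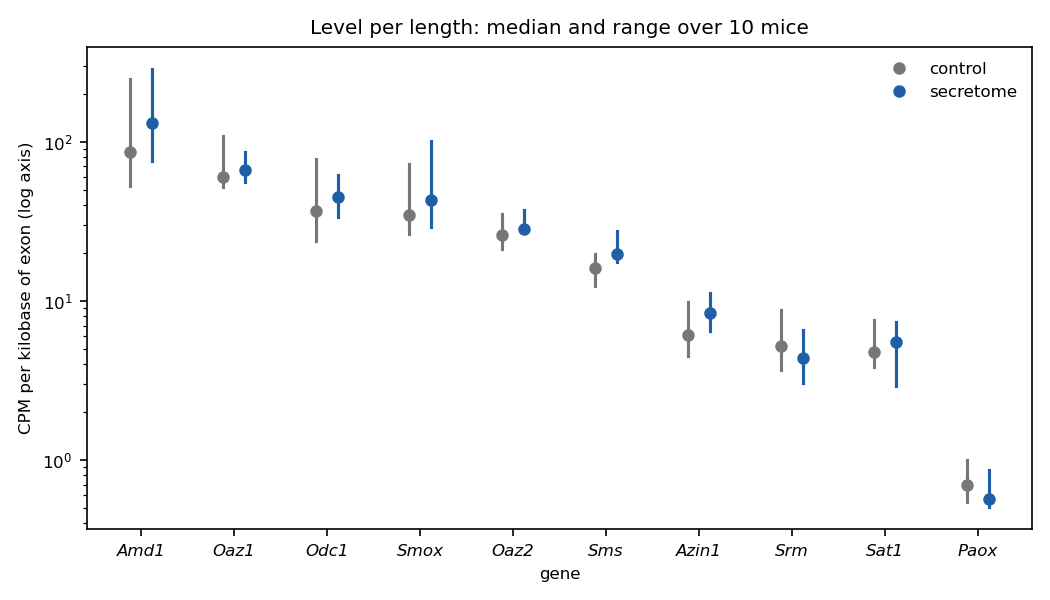
The level of each gene in CPM per kilobase of exon (log axis), with the median as a point and the range over 10 mice as a line, for control (grey) and secretome (blue) muscle. Amd1 (medians 86.2 and 131) stands at one end and Paox (0.70 and 0.57) at the other, with overlapping ranges for the 2 groups in every gene.

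No member passed the 5% false discovery rate between secretome and control muscle (quasi-likelihood F-test of edgeR, p adjusted after Benjamini and Hochberg), as was so for all but 1 of the genes tested (0.00691%). At an unadjusted p under 0.05, 3 members were higher (Sms, Azin1 and Amd1) and 0 lower, where 6.52% of all genes were higher and 9.21% lower. In direction alone, 8 of 10 members were higher, and their median log2 fold change was 0.14, against -0.03 over all genes. The members were chosen with earlier results of these data known, so setting them beside all genes is a description only. Within libraries 6 to 15, 0 members passed the false discovery rate (0.00% of all genes), 1 was higher at an unadjusted p under 0.05 (5.02% of all genes) and 0 were lower (4.88%). There the members divided evenly, 5 higher and 5 lower, with a median of 0.07 against -0.01 over all genes. In no member were the groups free of overlap, in all libraries (0.0484% of all genes) or in libraries 6 to 15 (1.91%).

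**Figure D2:**
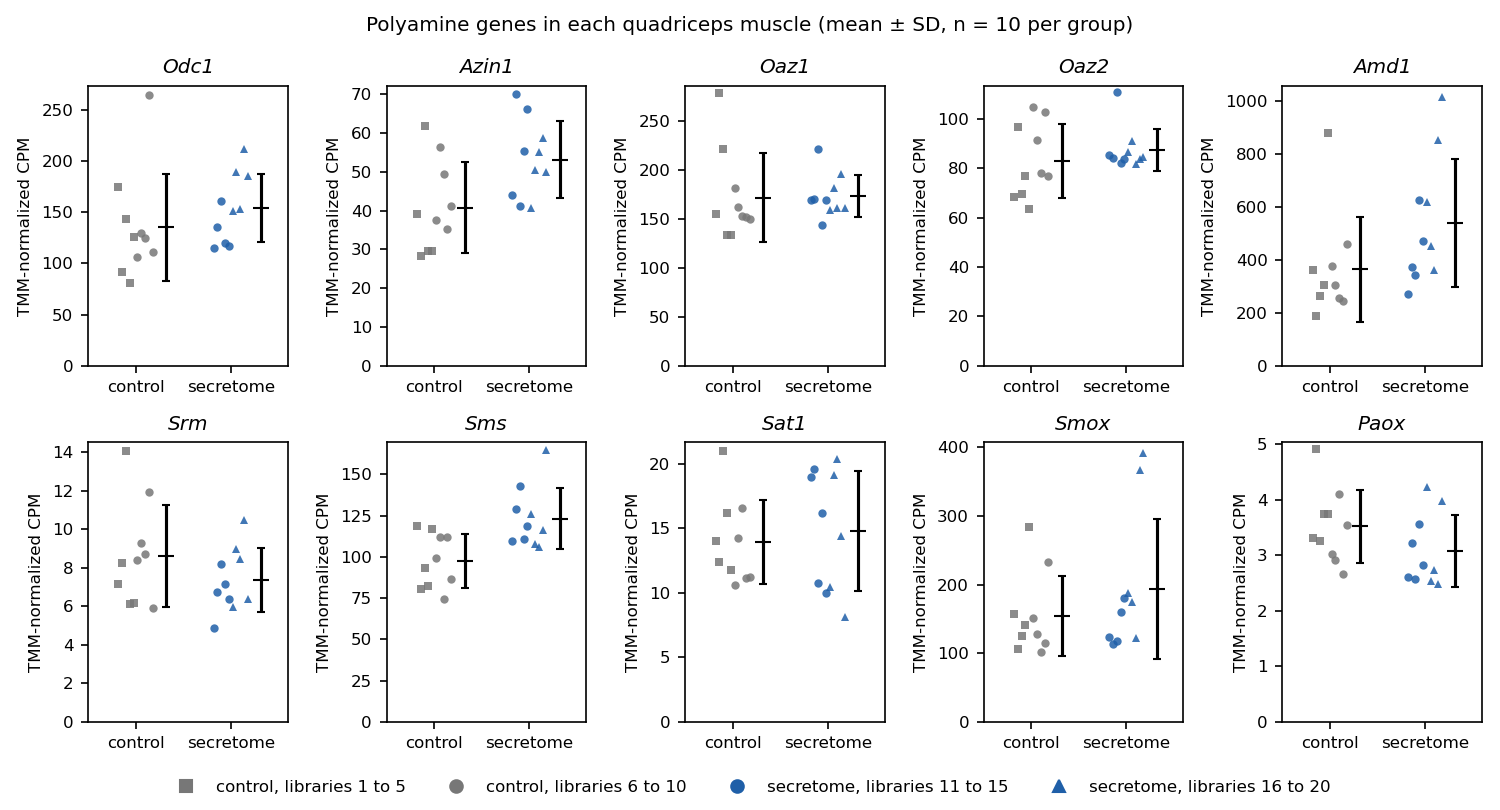
TMM-normalized CPM of the 10 genes in each mouse, control in grey and secretome in blue, with the library range given by the symbol and the mean ± SD (n = 10) in black. The groups overlap in every panel, and Sms shows the secretome points from 106 to 165 CPM against 74.5 to 119 in control.

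Ornithine decarboxylase, Odc1 (ENSMUSG00000011179), makes putrescine and is the step that antizyme controls. Its level ran from 81.3 CPM through a median of 125 to 264 in control muscle and from 115 through 153 to 212 in secretome muscle. The highest value of all, 264 CPM, was a control (replicate 9), and the means were 135 ± 52.4 and 154 ± 33.2 CPM (SD, n = 10 each). The log2 fold change was 0.19 (95% interval -0.17 to 0.54, adjusted p = 0.608), within the spread between mice. Without control replicate 9 it was 0.35 (p = 0.0190, adjusted p = 0.266).

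The direction for Odc1 differed between the library sets. In libraries 6 to 15, the controls had 106, 130, 125, 264 and 112 CPM and the secretome muscles 115, 136, 161, 120 and 117. Their log2 fold change was -0.17 (adjusted p = 0.807), and 0.15 (adjusted p = 0.725) without control replicate 9. In the other libraries, the controls had 174, 91.9, 144, 81.3 and 126 CPM and the secretome muscles 152, 189, 154, 212 and 186. The 3 highest of these 10 muscles were secretome-treated, and the log2 fold change was 0.54 (standard error 0.198, p = 0.0174, adjusted p = 0.218), with p under 0.05 in all 10 fits that left out a library. Tested directly, the 2 differences were apart by -0.71 on the log2 scale (standard error 0.321, unadjusted p = 0.0377, adjusted p = 0.407). This unadjusted p was over 0.05 without any 1 of control replicates 2, 4 and 9 or secretome replicates 1, 4, 5, 7, 9 and 10, and without control replicate 9 the value was -0.39. Among all genes, 0.0553% passed the false discovery rate for this difference of differences, and 5.59% were higher and 5.51% lower at an unadjusted p under 0.05, while of the members 0 passed, 0 were higher and 1, Odc1, was lower. The 6 muscle fibre markers lay in the same order, with a median log2 fold change of -0.08 in libraries 6 to 15 (4 of 6 lower) and 0.31 in the others (6 of 6 higher, 2 at an unadjusted p under 0.05). For the difference between the sets their median was -0.40, with 6 of 6 lower and 2 at an unadjusted p under 0.05. The 4 endothelial markers had medians of -0.25 and 0.21 in the 2 sets, and -0.40 for the difference. For that difference, macrophage and neutrophil medians were also negative (-0.25 and -1.10). Other lists went the other way. The fibroblast median was 0.35 (4 of 5 higher, 2 at an unadjusted p under 0.05). Satellite cell, blood, Schwann cell and adipocyte medians were 0.34, 0.40, 0.23 and 0.04. The part of these cells in the Odc1 values was not tested.

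The antizyme inhibitor Azin1 (ENSMUSG00000037458), a catalytically inactive relative of Odc1 that frees it from antizyme, had 28.2 CPM at the lowest, 38.3 at the median and 61.9 at the highest in control muscle. In secretome muscle it had 40.8, 52.8 and 70.1 CPM. Every secretome muscle lay above the control median, and 2 lay above the highest control, replicate 3. That control had the highest neutrophil marker sum of its group, 96.1 CPM against a median of 9.60, and the highest blood marker sum, 1172 against 239. The highest neutrophil sum in secretome muscle, 106 CPM, was in replicate 8, which had 55.1 CPM of Azin1. The part of these cells in the Azin1 values was not tested. The means were 40.8 ± 11.7 and 53.2 ± 9.97 CPM, which is 0.38 on the log2 scale (standard error 0.142, p = 0.0131, adjusted p = 0.213) and did not pass the false discovery rate. In libraries 6 to 15, Azin1 had 37.7, 56.5, 49.3, 35.1 and 41.1 CPM in control and 44.0, 70.1, 41.1, 55.3 and 66.1 in secretome muscle. All 5 secretome muscles were above the median of those controls, by a log2 fold change of 0.35 (p = 0.0609, adjusted p = 0.523). In the other libraries it was 0.45 (p = 0.0465, adjusted p = 0.301), and the 2 values differed by -0.10 (95% interval -0.70 to 0.49). The p in the other libraries stayed under 0.05 in 2 of the 10 fits that left out a mouse (control replicate 3, where the log2 fold change was 0.69, or secretome replicate 6) and was 0.110 without secretome replicate 9. Over all libraries, p stayed under 0.05 in each of the 20 fits that left out a mouse.

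Antizyme 1, Oaz1 (ENSMUSG00000035242), is made in full when polyamines shift its ribosomes into another reading frame, a step that transcript counts do not measure. It had 133 CPM at the lowest, 154 at the median and 278 at the highest in control muscle, and 144, 169 and 221 in secretome muscle. The means were 171 ± 45.2 and 173 ± 21.8 CPM, and the log2 fold change of 0.01 had an interval of -0.24 to 0.26, or 0.85 to 1.20 as a ratio. Antizyme 2, Oaz2 (ENSMUSG00000040652), which is controlled in the same way, had means of 82.9 ± 14.9 and 87.4 ± 8.67 CPM and a log2 fold change of 0.08 (-0.12 to 0.27). All 10 secretome muscles exceeded its control median of 77.5 CPM, but within libraries 6 to 15 only 1 of 5 exceeded that of their controls, 91.6 CPM. Oaz1 was 0.14 higher and Oaz2 0.01 lower there on the log2 scale (adjusted p = 0.665 and 0.974).

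S-adenosylmethionine decarboxylase, Amd1 (ENSMUSG00000075232), supplies the aminopropyl donor for spermidine and spermine. Its coefficient of variation over all 20 mice, 51.4%, was the highest among the members. Its level ran from 186 CPM through a median of 305 to 880 in control muscle and from 269 through 464 to 1015 in secretome muscle. Control replicate 5 held the 880, more than all secretome muscles but replicate 10, and 9 of 10 secretome muscles lay above the control median. The means were 364 ± 197 and 539 ± 241 CPM. The log2 fold change was 0.57 (standard error 0.266, 95% interval 0.01 to 1.12, p = 0.0449, adjusted p = 0.304), the largest among the members. The p stayed under 0.05 in 8 of the 20 fits that left out a mouse (control replicate 5 or 10, or secretome replicate 1, 2, 3, 5, 7 or 8). Without control replicate 5, the log2 fold change was 0.81 (adjusted p = 0.114), and without secretome replicate 10 it was 0.42 (p = 0.115, adjusted p = 0.466).

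Within libraries 6 to 15, Amd1 had 377, 306, 255, 245 and 460 CPM in control and 269, 374, 344, 625 and 473 in secretome muscle. The sets overlapped, and the log2 fold change was 0.36 (95% interval -0.15 to 0.86, adjusted p = 0.610). It was 0.16 without secretome replicate 4 and 0.51 (p = 0.0419, adjusted p = 0.352) without control replicate 10. In the other libraries, the controls had 361, 186, 264, 305 and 880 CPM and the secretome muscles 621, 454, 362, 855 and 1015. The 0.74 there (p = 0.0954, adjusted p = 0.389) was 1.25 (p = 0.00167, adjusted p = 0.112) without control replicate 5. The near copy Amd2 had 469 reads over all 20 libraries, at most 60 in one, and the pseudogene Amd-ps3 had 247, against at least 2999 reads of Amd1 in each library. The promoter windows of Amd1 and Amd2 share a run of 48 bases that ends at base 300 of the Amd1 window, and how reads that match both genes were counted is not given in the sources used here.

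Spermidine synthase, Srm (ENSMUSG00000006442), adds the first aminopropyl group. It had 5.92 CPM at the lowest, 8.33 at the median and 14.1 at the highest in control muscle, and 4.86, 6.97 and 10.5 in secretome muscle, on 80 to 250 reads a library. The highest value was again that of control replicate 3. Secretome over control, this was -0.22 on the log2 scale (95% interval -0.56 to 0.11, adjusted p = 0.500), and -0.12 without control replicate 3. Among libraries 6 to 15 the controls had 8.40, 9.28, 8.73, 11.9 and 5.92 CPM and the secretome muscles 4.86, 6.77, 8.18, 7.17 and 6.38. All 5 secretome muscles were below the median of those controls, and the log2 fold change was -0.39 (p = 0.0505, adjusted p = 0.504). In the other libraries it was -0.04 (adjusted p = 0.948), and the difference between the 2 was not past the test (-0.35, p = 0.285).

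Spermine synthase, Sms (ENSMUSG00000071708), adds the second aminopropyl group, and was the member with the smallest p. It had 74.5 CPM at the lowest, 96.2 at the median and 119 at the highest in control muscle, and 106, 118 and 165 in secretome muscle. All 10 secretome muscles lay above the control median and 4 above the highest control, while the other 6 fell within the control range. The means were 97.6 ± 16.5 and 123 ± 18.6 CPM, which is 0.34 on the log2 scale (standard error 0.103, 95% interval 0.12 to 0.55, p = 0.00323), and the adjusted p of 0.158 did not pass. The p was under 0.05 in each of the 20 fits that left out a mouse, at most 0.00849, and the adjusted p ranged from 0.124 to 0.304. Adjusted p in DESeq2 was 0.062, in a run where 566 of 18521 genes had an adjusted p under 0.1.

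Sms differed by nearly the same amount in both library sets. The controls of libraries 6 to 15 had 99.1, 112, 74.5, 112 and 86.8 CPM and the secretome muscles 109, 129, 143, 111 and 119. This log2 fold change was 0.35 (standard error 0.123, p = 0.0131, adjusted p = 0.449), and all 5 secretome muscles were above the control median and 3 above the highest control. In libraries 1 to 5 the controls had 119, 80.4, 93.4, 82.3 and 117 CPM and in libraries 16 to 20 the secretome muscles had 126, 108, 106, 117 and 165. That log2 fold change was 0.34 (p = 0.0553, adjusted p = 0.321), and 0.21 (p = 0.187) without secretome replicate 10. The difference between the 2 was -0.00 with an interval of -0.44 to 0.43, so a difference of that size between the sets could not be seen with these mice.

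Between libraries 1 to 5 and 16 to 20, 0 members passed the false discovery rate (0.00% of all genes), 2 were higher at an unadjusted p under 0.05 (Odc1 and Azin1; 7.02% of all genes were higher) and 0 were lower (9.19%). The count of 2 became 4 without control replicate 5 or without secretome replicate 8, and 1 without control replicate 4 or without secretome replicate 7, 9 or 10. Of all 14471 genes, 1016 were higher and 1330 lower in the main fit. They were 1118 and 1474 without control replicate 5, 986 and 1252 without secretome replicate 8, and 694 and 1153 without secretome replicate 10.

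**Figure D3:**
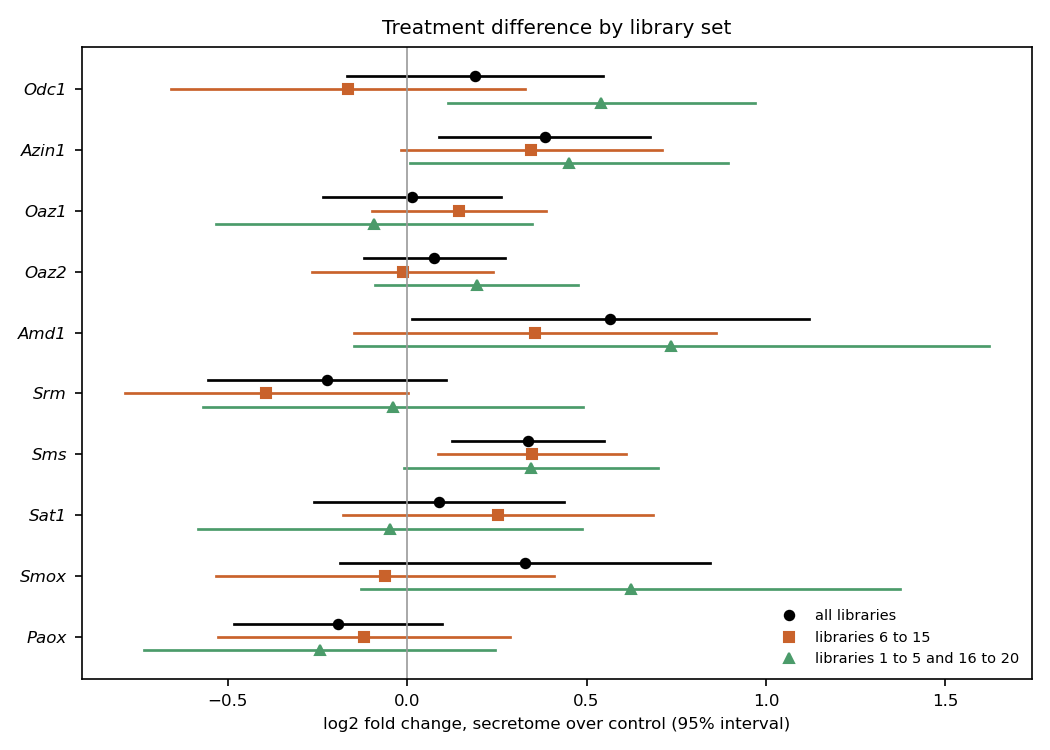
The log2 fold change of secretome over control (points) with its 95% interval (lines) for each gene in all libraries, in libraries 6 to 15 and in the other 10 libraries. Sms lies at 0.34, 0.35 and 0.34 in the 3 sets, while Odc1 lies at 0.19, -0.17 and 0.54 and Smox at 0.33, -0.06 and 0.62.

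On the catabolic side, spermidine/spermine N1-acetyltransferase, Sat1 (ENSMUSG00000025283), marks polyamines for oxidation or export. It had 10.6 CPM at the lowest, 13.2 at the median and 21.0 at the highest in control muscle, and 8.14, 15.3 and 20.4 in secretome muscle. The secretome muscles were found at both ends, with 3 of 10 below the lowest control, and the log2 fold change was 0.09 (95% interval -0.26 to 0.44). It was 0.25 within libraries 6 to 15 and -0.05 in the others, and neither passed (adjusted p = 0.667 and 0.940). Paox (ENSMUSG00000025464), which oxidizes the acetylated forms, was counted at only 43 to 79 reads a library. Its means were 3.52 ± 0.65 and 3.08 ± 0.64 CPM, and 4 of 10 secretome muscles fell below the lowest control (log2 fold change -0.19, 95% interval -0.48 to 0.10, adjusted p = 0.505).

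Spermine oxidase, Smox (ENSMUSG00000027333), turns spermine straight back to spermidine. It had 102 CPM at the lowest, 134 at the median and 284 at the highest in control muscle, and 113, 167 and 392 in secretome muscle. Secretome replicates 9 and 10 stood at 367 and 392 CPM, and the other 8 did not exceed 188. The means were 154 ± 58.9 and 194 ± 102 CPM, and the log2 fold change was 0.33 (standard error 0.248, 95% interval -0.19 to 0.84, adjusted p = 0.523). Without secretome replicate 10 it was 0.15, and without control replicate 5 it was 0.47. Within libraries 6 to 15, Smox had 152, 128, 102, 115 and 233 CPM in control and 123, 113, 117, 159 and 180 in secretome muscle, a log2 fold change of -0.06 (adjusted p = 0.931). It was 0.62 (p = 0.0965, adjusted p = 0.390) in the other libraries, and the difference between the 2 was -0.69 (standard error 0.44, p = 0.133, adjusted p = 0.598).

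Mouse by mouse, Smox followed Amd1. The 3 mice highest in Amd1 (secretome replicates 10 and 9 and control replicate 5) were also the 3 highest in Smox, though 1 of them was a control. With the means of the 4 groups of 5 mice (library range and treatment) subtracted from log2 CPM, Pearson's r was 0.91 and Spearman's rho 0.91 over 20 mice (permutation test with 100000 resamples within the groups, two-sided, p = 1e-05 for both, the smallest these resamples can give; adjusted p = 0.00045 over 45 pairs). Leaving out the 2 mice farthest from the median of Amd1, r was 0.90. It was 0.81 in libraries 6 to 15 and 0.94 in the other libraries. Of the 45 pairs, 10 had an unadjusted p under 0.05 for r, and Amd1 with Smox was the pair that passed.

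Odc1 did not follow them. Its r with Amd1 was 0.03 (rho 0.05, permutation p = 0.92 and 0.843, adjusted p = 0.963 and 0.953), and -0.12 without the 2 farthest mice. It was -0.47 in libraries 6 to 15 and 0.36 in the others. With Sms, Odc1 had an r of 0.56 (rho 0.57, permutation p = 0.0262 and 0.0297, adjusted p = 0.208 and 0.151), and 0.46 without the 2 farthest mice. That r was 0.57 in both library sets, but the pair did not pass. Among the antizymes, Oaz1 and Oaz2 had an r of 0.65 (rho 0.53, permutation p = 0.00855 and 0.0338, adjusted p = 0.192 and 0.151). It was 0.76 in libraries 6 to 15 and 0.67 in the others, and 0.31 without the 2 mice farthest from the median of Oaz1. Leaving these out also narrows the range of Oaz1. The lower r therefore cannot tell whether the relation rested on those mice. Sat1 ran against Smox, with an r of -0.56 (rho -0.54, permutation p = 0.0313 and 0.0299, adjusted p = 0.208 and 0.151) and -0.41 without the 2 farthest mice. It was -0.48 in libraries 6 to 15 and -0.61 in the others.

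**Figure D4:**
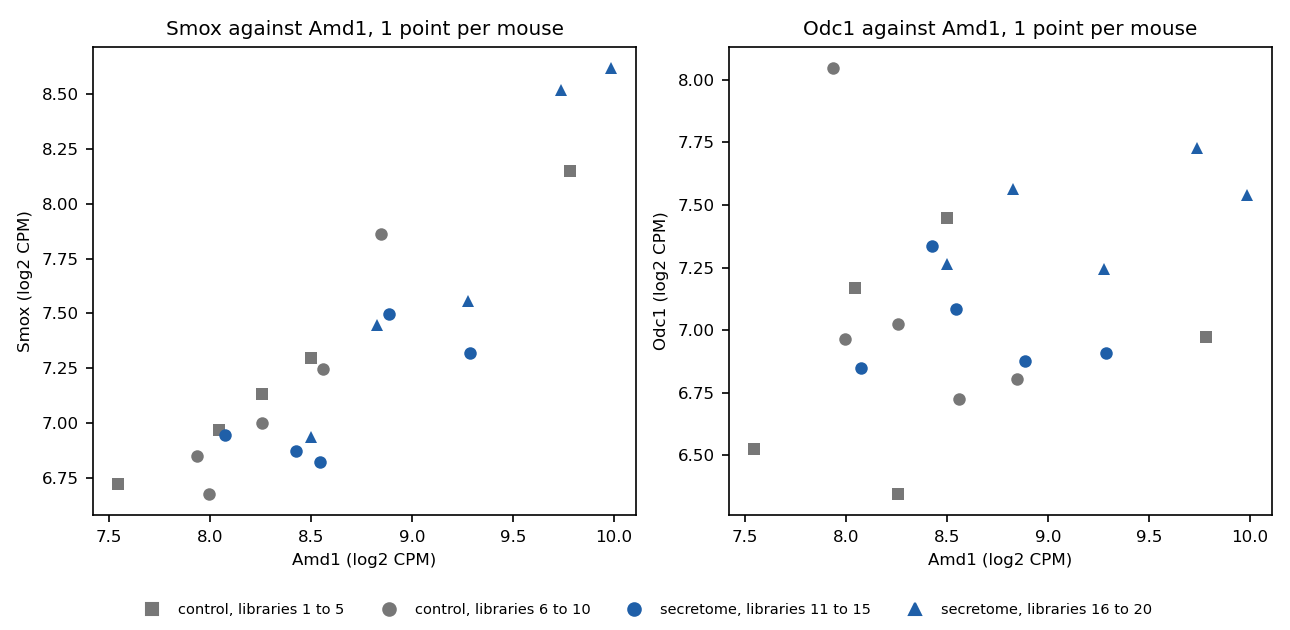
Log2 CPM of Smox (left) and Odc1 (right) against Amd1, 1 point per mouse, control in grey and secretome in blue, with symbols for the library range. The Smox points follow 1 line through both groups (r of the points shown 0.91), and the Odc1 points do not (0.28). For the deviations from the group means, r was 0.91 and 0.03.

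**Figure D5:**
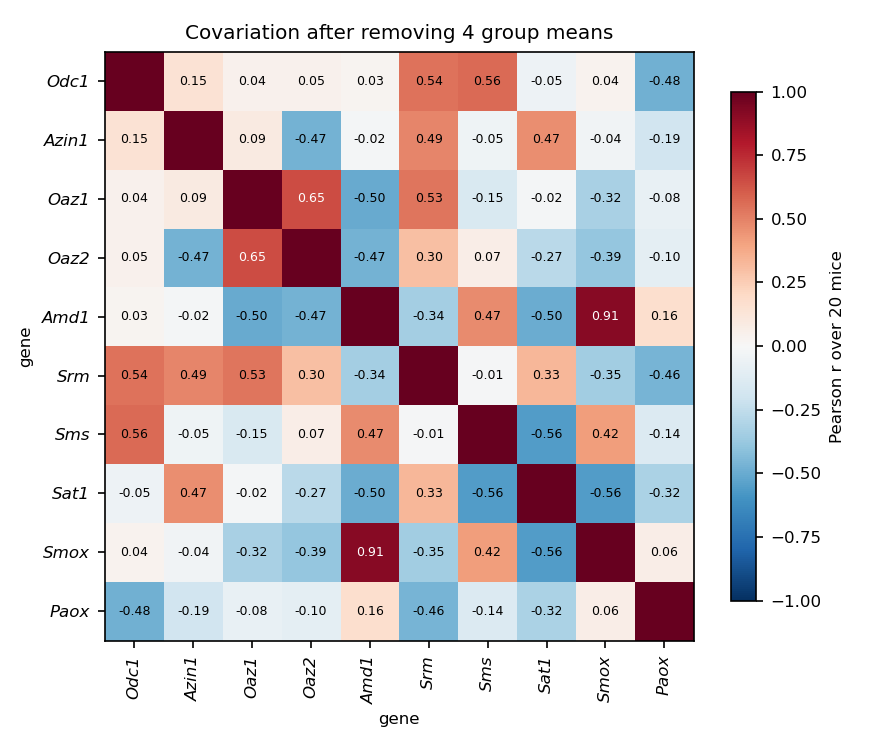
Pearson's r between each pair of the 10 genes over 20 mice, computed on log2 CPM after removing the means of the 4 groups (red positive, blue negative). Amd1 with Smox (0.91) is the pair past the 5% false discovery rate, followed by Oaz1 with Oaz2 (0.65).

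Of 13171 tested genes that have a symbol and average 1 CPM or more, those with a pattern most like Amd1 were Smox (r = 0.91), Cdk19, a kinase of the Mediator complex (0.91), and Neto2, an auxiliary subunit of kainate receptors (0.91), and with the group means left in, Cdk19 (0.93) and Neto2 (0.91) stood above Smox (0.91). Those most like Smox were Amd1, Pax7, the transcription factor of satellite cells (0.87), and the near copy Amd2 (0.87). For Odc1 they were Clip1, Cd151 and Arhgef17 (0.85, 0.84 and 0.84), and Amd1 stood at place 6267. These values are a description over the same 20 mice, with the group means removed. With the means left in, r was 0.64 for Pax7 with Smox, 0.86 for Amd2 with Smox, and 0.80, 0.55 and 0.59 for Clip1, Cd151 and Arhgef17 with Odc1. It was 0.28 for Amd1 with Odc1. The satellite cell markers Pax7 and Myf5 summed to 1.94 to 6.01 CPM in control and 2.30 to 4.32 in secretome muscle, with the highest sums in control replicate 5 and secretome replicate 9. The fibroblast marker sum was also highest of its group in control replicate 5 (934 CPM, median 535) and secretome replicate 10 (572 CPM, median 400). The adipocyte marker sum was highest of its group in secretome replicate 10 (81.9 CPM, median 49.3), and the muscle fibre and endothelial sums were so in secretome replicate 9 (115552 CPM, median 89692, and 172 CPM, median 130.3). Among controls, the adipocyte sum was highest in replicate 4 (232 CPM, median 62.5). The muscle fibre sum was highest in control replicate 6 and the endothelial sum in control replicate 8. These controls placed 15, 9 and 18 of 20 mice in Amd1. Macrophage, neutrophil, blood and Schwann cell sums were highest in control replicates 3, 4 and 8 and secretome replicates 3 and 8. The part of these cells in the Amd1 and Smox levels was not tested.

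Ratios of reads within a library do not depend on the scaling between libraries, and are given without a test. The log2 ratio of Sms to Srm, the synthases for spermine and spermidine, was 3.54 ± 0.46 in control and 4.08 ± 0.41 in secretome muscle (SD, n = 10 each). In libraries 6 to 15 it ranged from 3.09 to 3.87 in control and from 3.95 to 4.49 in secretome muscle, so the groups did not overlap there. In the other libraries they did, at 2.73 to 4.24 and 3.48 to 4.69. Of all single genes tested, 1.91% had no overlap in libraries 6 to 15, and no such share was computed for ratios. The members in these ratios were chosen with earlier results of these data known. The log2 ratio of Odc1 to Oaz1, the enzyme to its antizyme, was 0.20 higher on average in secretome muscle, made up of -0.22 in libraries 6 to 15 and 0.61 in the others. That of Azin1 to Oaz1 was 0.37 higher, 0.20 and 0.54 in the 2 sets. Amd1 to Odc1 was 0.35 higher (0.43 and 0.27), and Smox to Sat1 was 0.21 higher (-0.24 and 0.67). Oaz2 to Oaz1 was 0.05 higher (-0.14 and 0.24), and every one of these averages was smaller than the SD between control muscles except that of Sms to Srm.

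The genes around the pathway were taken from 6 lists of 33 genes, of which 25 were tested. Over all libraries, 1 was higher at an unadjusted p under 0.05 (6.52% of all genes), 0 were lower (9.21%) and 0 passed the false discovery rate (0.00691%). The median log2 fold change of the 25 was -0.02 against -0.03 over all genes. The 1 was Slc25a15, the mitochondrial ornithine carrier, among 7 transport genes (log2 fold change 0.29, p = 0.0196, adjusted p = 0.242). Within libraries 6 to 15 it was 0.15, and there 0 of the 25 were higher (5.02% of all genes) and 2 lower (4.88%). These were Slc3a2, the heavy chain of amino acid transporters linked to polyamine export (-0.37, p = 0.0115, adjusted p = 0.449), and Ahcy, which clears S-adenosylhomocysteine (-0.29, p = 0.0492, adjusted p = 0.504).

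In the list for ornithine and arginine supply, Oat, ornithine aminotransferase, was the gene tested of 4, with a log2 fold change of 0.09 over all libraries. It was -0.16 in libraries 6 to 15 and 0.44 in the others (p = 0.00533, adjusted p = 0.161), and the difference between the 2 was -0.61 (unadjusted p = 0.0093, adjusted p = 0.264). Of the 4 genes of the hypusine route, by which spermidine modifies the translation factor Eif5a, 0 had an unadjusted p under 0.05. The smallest was that of the hydroxylase Dohh (-0.51, p = 0.0801, adjusted p = 0.374). Of 8 tested genes for S-adenosylmethionine supply and salvage, 0 did over all libraries, with Mat2a first (0.14, p = 0.240, adjusted p = 0.565). Among other polyamine enzymes, the acetyltransferase Sat2 came first (-0.17, p = 0.317, adjusted p = 0.634). The 8 genes not tested had at most 36 reads in a library, among them Arg1, Arg2 and Oaz3.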

How the data were processed

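The authors extracted total RNA from quadriceps, depleted ribosomal RNA, prepared directional libraries and sequenced pairs of 150 bases. They deposited whole-number read counts per gene without normalization, in 1 column for each of 20 mice, with 0 identical columns. The submitters' processing notes name cutadapt 1.16, STAR 2.7.9a, featureCounts 1.6.3, DESeq2 1.34.0 and the build GRCm39 (mm39). The strand setting of the counting and the treatment of reads that match near copies are not given in the sources used here. Gene symbols came from a name table that matched 52083 of 55416 identifiers.

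Counts were filtered with filterByExpr (14471 genes kept), scaled with TMM and tested in edgeR 4.0.16 (R 4.3.3) by its quasi-likelihood F-test in robust mode, with no term but treatment, and p-values were adjusted after Benjamini and Hochberg over all genes tested (5% false discovery rate). The same fit was made for libraries 6 to 15 and for libraries 1 to 5 with 16 to 20, and a model with 4 means tested the difference between them. Groups and numbers came from the sample labels. Log2 CPM used a prior count of 2. Exon lengths came from GENCODE M21. Correlations were tested by permutation in Python 3.11.15. The alternatives were DESeq2 1.42.0, RLE scaling, no filter, a 10% false discovery rate, voom of limma 3.58.1, a term for 3 library ranges, a replicate block and each library left out. The procedure was tested on simulated counts.

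Named were all 10 members, listed genes at an unadjusted p under 0.05 over all libraries or in libraries 6 to 15, the gene with the smallest p of each list (that of 1 list is not reported here), near copies for their counts, and the 3 genes most like Amd1, Smox and Odc1. The members and lists were chosen with earlier results of these data known.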

Additional observations from a re-analysis of the deposited data

Results flagged for a closer look

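Of 32 groups of 10 values examined, 3 held a mouse whose gap to the nearest other exceeded Dixon's 95% limit for the range, where chance flags about 1 group in 20. Oaz2 in secretome replicate 3 had a log2 CPM of 6.79 against 6.51 in the next mouse (gap 0.648 of the range). The log2 ratio of Azin1 to Oaz1 in control replicate 2 was -3.30 against -2.27 in the next control (0.578). The log2 ratio of Oaz2 to Oaz1 in secretome replicate 9 was -1.22 against -1.02 (0.495). The log2 fold change of Odc1 within libraries 6 to 15 minus that in the other libraries was -0.71 (unadjusted p = 0.0377), and did not pass the false discovery rate (adjusted p = 0.407). The cause of these values was not tested.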

How the results depend on the processing

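No member passed the 5% false discovery rate in any comparison under any alternative run, and Sms in DESeq2 over all libraries (adjusted p = 0.062) was the member that passed at 10%. That DESeq2 run passed 566 of 18521 genes at 10%, and 63 higher and 140 lower at 5%. The main fit passed 3 of 14471 at 10%. The 3 members at an unadjusted p under 0.05 over all libraries became 2 without a filter and 2 in voom with quality weights, where Amd1 was lost (log2 fold change 0.58, p = 0.0579, and 0.38, p = 0.128, adjusted p = 0.537), and 1 with a term for 3 library ranges, which leaves the 10 mice of libraries 6 to 15 to inform the treatment. With that term the log2 fold changes of Smox, Odc1 and Oaz2 were -0.074, -0.18 and -0.025, the reverse of the main direction. Within libraries 6 to 15 the count of 1 became 3 without a filter and 2 in DESeq2. Leaving out 1 mouse at a time, these counts ranged from 2 to 3 over all libraries, from 1 to 3 in libraries 6 to 15 (2 without control replicate 7, 3 without control replicate 10 or secretome replicate 1 or 3), from 1 to 4 in libraries 1 to 5 with 16 to 20, and from 0 to 3 for the difference between them (2 without control replicate 3 or secretome replicate 8, 3 without control replicate 5, 0 without control replicates 4 or 9 or secretome replicates 1, 4, 5, 7, 9 or 10). Counts over all 14471 genes moved as well. Over all libraries, 944 were higher and 1333 lower in the main fit, and 352 and 483 with the term for 3 library ranges. In libraries 6 to 15, 726 were higher and 706 lower in the main fit. There they were 1077 and 907 without control replicate 10, but 584 and 537 without secretome replicate 1.

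Leaving out 1 mouse turned the sign of small log2 fold changes. Over all libraries, Oaz1 ranged from -0.029 to 0.12. In libraries 6 to 15, Smox ranged from -0.18 to 0.18, Odc1 from -0.27 to 0.15 and Oaz2 from -0.11 to 0.042. In libraries 1 to 5 with 16 to 20, Sat1 ranged from -0.20 to 0.10, Oaz1 from -0.19 to 0.12 and Srm from -0.17 to 0.21. For the difference between the sets, Azin1 ranged from -0.36 to 0.0023 and Sms from -0.083 to 0.12. Amd1, Azin1 and Sms, which were higher, and Paox, which was lower, kept their direction in each comparison of treatments under every alternative run. The log2 fold change of Paox was -0.12 in libraries 6 to 15 and -0.24 in libraries 1 to 5 with 16 to 20 (adjusted p = 0.837 and 0.614). The cause of these changes was not tested. With the replicate number as a block, the count over all libraries stayed at 3, and 0 members passed. Deviations of same-numbered mice from their treatment means correlated from -0.24 to 0.221, with 2 of 10 over 0.1. Same-numbered mice always lay in different ranges of library numbers, and the range means were left in. These values therefore cannot tell whether the numbers pair the mice. Paox, Srm and Sat1 rest on the fewest reads, which limits what can be seen in them.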
